A study of Mus musculus with 59 samples.

Results

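The 9 glutathione S-transferase genes of the pi class (Gstp1 and Gstp2) and the mu class (Gstm1 to Gstm7) were followed in mouse liver, soleus and gastrocnemius muscle and in AML12 cells. They were chosen by symbol, with earlier results of these data known, and each was found among the 24972 genes of all 4 expression tables. None of the 9 passed the test in any of 19 comparisons, and Gstm3 and Gstm6 were not tested in muscle. Over all genes at most 4.77% were called in any comparison, and none in most. In liver Gstp1 and Gstp2 nevertheless ranked 3 and 2 by p among 11497 genes. Their means were lower there under hydroxycitrate (HC), a decrease that the study had already reported for both genes. The study selected genes with DESeq2 by a p and a fold change limit, unlike the adjusted p used here. It also reported increased RNA of Gst family genes in liver under HC. These enzymes conjugate glutathione, a small thiol peptide, to electrophiles such as oxidised lipids and drug metabolites, which are then exported from the cell. The mu genes lie in 1 cluster and the pi genes in another, each of closely related copies, and rodent liver is known as a rich source of both classes. Both classes also bind and restrain stress-signalling kinases.

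The study asked how inhibition of ATP citrate lyase (ACLY), the enzyme that makes cytosolic acetyl-CoA from citrate, affects liver and muscle. RNA-seq was available for 59 libraries in 17 groups. Male C57BL/6 mice aged 41 weeks were fed a standard diet (STD, n = 5) or the same diet with HC, an ACLY inhibitor, at 7.5 g/kg for 21 weeks (n = 5), and liver and soleus were taken after a fast. For gastrocnemius, mice aged 6 months received 10 µM cardiotoxin (CTX), a snake toxin that kills muscle fibres, in the left hind limb. From the injection on they were fed with or without HC at 7.5 g/kg of diet. Muscle was taken 2 or 30 days post injury (DPI), giving CTX 2 DPI, CTX-HC 2 DPI, CTX 30 DPI and CTX-HC 30 DPI, and uninjured mice that had received no injection served as controls (n = 3 each). AML12, a mouse hepatocyte line made with a transforming growth factor alpha transgene, received a control siRNA (siC) or an siRNA against Acly (siAcly). Each was then left untreated (Ut) or exposed for 16 h to HC at 1 mM or to either of 2 other ACLY inhibitors, SB-204990 (SB) at 10 µM and bempedoic acid (Bemp) at 30 µM (n = 3 each). The labels do not say whether AML12 libraries came from separate cultures, so p-values there measure only the spread between libraries.

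Gstp1 (ENSMUSG00000060803, chr19:4035407-4037985) and Gstp2 (ENSMUSG00000038155, chr19:4040285-4046023) are neighbours on the minus strand of GRCm38. The mu genes lie on chromosome 3 between 107895821 and 108044894, all on the minus strand but Gstm5. The pi sequences are shown because reads from the 2 genes can be hard to tell apart: their coding sequences, 630 bases each, differed at 12 bases. The 60 coding bases with most differences lie in exon 5 of 7, at coding positions 271 to 330 (Gstp1 at chr19:4036694-4036753, Gstp2 at chr19:4040988-4041047, minus strand), and the 5 differing bases are in capitals.
Gstp1: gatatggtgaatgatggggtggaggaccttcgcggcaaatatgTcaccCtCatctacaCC
Gstp2: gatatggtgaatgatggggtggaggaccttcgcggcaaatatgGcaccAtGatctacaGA

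The likeness extended upstream. The RefSeq GRCm38.p6 promoters shared a run of 43 bases (capitals), here in the sequence before the outermost exon of Gstp1 (chr19:4037986-4038162) and before the matching exon of Gstp2 (chr19:4042264-4042471), both on the minus strand.
Gstp1: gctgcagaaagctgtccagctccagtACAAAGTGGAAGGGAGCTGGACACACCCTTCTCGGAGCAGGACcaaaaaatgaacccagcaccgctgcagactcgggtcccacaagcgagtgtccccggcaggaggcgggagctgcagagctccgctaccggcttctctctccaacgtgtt
Gstp2: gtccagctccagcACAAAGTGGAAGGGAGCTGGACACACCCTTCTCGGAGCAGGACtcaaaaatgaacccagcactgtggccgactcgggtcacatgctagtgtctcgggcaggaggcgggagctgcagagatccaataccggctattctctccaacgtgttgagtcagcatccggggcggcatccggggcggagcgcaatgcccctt

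Of the 772 windows of 50 bases in the Gstp1 transcript, 481 (62.3%) also occurred in Gstp2, and 543 of 748 Gstp2 windows (72.6%) occurred in Gstp1 or a pseudogene transcript. The shared share was 28.8% for Gstm3, 23.1% for Gstm1, 11.5% for Gstm6 and 9.36% for Gstm2, and it was 0 for Gstm4, Gstm5 and Gstm7. The coding sequences of Gstm1 and Gstm3 were 89.5% identical. How the authors' counting divided such reads is not stated, so the split between Gstp1 and Gstp2 and the level of Gstm3 beside the far higher Gstm1 are uncertain. The core of the antioxidant response element, through which Nrf2 acts (TGACNNNGC, either strand), was found within 250 bases before the start of Gstm5 (TGACCACGC, chr3:107895812-107895820) and of 1 annotated start of Gstm7 (TGACAAAGC, chr3:107931735-107931743). It was present in 10.2% of 32851 promoters. A STAT-type site (TTCNNNGAA), present in 7.02% of promoters, was found at 1 start of Gstm6 (TTCCACGAA, chr3:107943518-107943526). The Gstm7 and Gstm6 sites lie inside the annotated genes (107926334 to 107931817 and 107938847 to 107943749, minus strand), downstream of the outermost starts. Neither site type was found before the other annotated starts of Gstm7 and Gstm6.

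Deposited values are normalised signals, scaled within each table. The estimated depth was 7.69 to 13.07 M reads per library in liver, 8.93 to 11.2 in soleus, 7.31 to 16.27 in AML12 and 16.04 to 34.89 in gastrocnemius. In untreated AML12 cells Acly fell by 3.47 on the log2 scale with siAcly (limma adjusted p = 0.00650). Against its label, siC Bemp 11 showed Acly at a signal of 404, inside the siAcly range of 215 to 599. Its Cyp1a1 signal of 236 was also below the other 5 Bemp libraries (678 to 1255), whereas siC Ut 13 showed Cyp1a1 at 917, within their range. One liver library, STD 5, held a summed signal of 856 over 8 muscle fibre markers, at or below 1.04 in the other 9. The 6 hepatocyte markers in the tables summed to between 637156 and 1071255 in liver and to between 6321 and 46321 in AML12, on separately scaled tables, so AML12 cells carried these markers at far lower signals than liver.

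Gstp1 was the leading member by length in every tissue. To compare genes, signals were scaled to a library sum of 1000000 and divided by transcript length in kb, which gives a length-scaled level. These are descriptions, since the 4 tables were normalised separately. In control groups Gstp1 reached 1818 ± 488 in liver (SD, n = 5), 1318 ± 175 in siC Ut AML12 cells (n = 3), 153 ± 15.2 in soleus (n = 5) and 156 ± 9.0 in uninjured gastrocnemius (n = 3). The libraries of liver and AML12 overlapped, as did those of the 2 muscles. Gstm1, the main mu gene, followed in liver (599 ± 117), AML12 (566 ± 51.2) and soleus (112 ± 11.4), while in gastrocnemius (56.5) it came after Gstp2. The pi class held 71.7% of the 9 genes' summed length-scaled level in STD liver, 61.8% in siC Ut cells, 54.1% in STD soleus and 64.8% in uninjured gastrocnemius.

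Gstp2 separated the tissues by its ratio to Gstp1. Its signal was 0.584 to 1.30% of that of Gstp1 over the 10 liver libraries and 0.402 to 0.884% over the 24 AML12 libraries, but 51 to 61.5% over the 10 soleus libraries and 33.6 to 64.3% over the 15 gastrocnemius libraries. The mean length-scaled level of Gstp2 was 17.3 in STD liver, 8.45 in siC Ut cells, 92.1 in STD soleus and 74.2 in uninjured gastrocnemius. The ranges of the ratio in liver and AML12 did not reach those of either muscle, with the limit that both genes share most of their sequence.

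The smaller mu genes had a different order in each table. Gstm5 had a mean length-scaled level of 4.48 in STD liver and of 48.1, 34.3 and 32.3 in soleus, gastrocnemius and AML12. Gstm2 was 176 in AML12 and 24.3 to 30.3 in the other 3. In liver Gstm6, Gstm2, Gstm4 and Gstm7 lay close together, at means of 29.0, 24.3, 23.9 and 20.4, and the libraries of each overlapped those of its neighbours in that order. Gstm3 and Gstm6, at means of 3.52 and 29.0 in liver, were at or near 0 in both muscles (Gstm3 0.0159 and 0, Gstm6 0.475 and 0.0971), where they did not reach a signal of 10 in enough libraries to be tested.

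**Figure D1:**
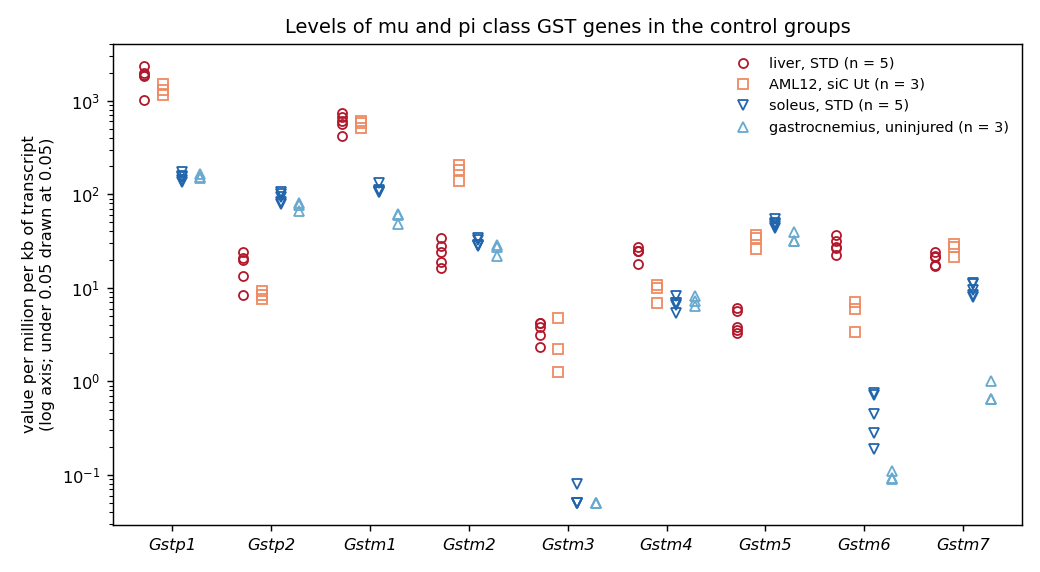
Length-scaled level (log axis, levels under 0.05 drawn at 0.05) of the 9 genes in the control group of each table, with 1 point for each library. Gstp1 is first in all 4 tables, and Gstp2 lies far below it in liver (17.3) and AML12 (8.45) but near it in soleus (92.1) and gastrocnemius (74.2).

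HC in the diet went with lower pi and higher mu means in liver. Gstp1, the main pi enzyme of hepatocytes, had signals of 15097, 13663, 8248, 17706 and 13560 in STD libraries 1 to 5. The HC libraries 6 to 10 held 8394, 7468, 5440, 4504 and 6114. Only HC 6 reached above the lowest STD library, STD 3, so the groups overlapped by this pair alone. The log2 difference between the groups was -1.09 (SE 0.20, 95% interval -1.53 to -0.65, 0.470-fold), with a limma adjusted p = 0.514.

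Gstp2 followed the same libraries. Its STD signals were 144.2, 177.5, 64.8, 152.0 and 93.2, and its HC signals were 64.8, 45.7, 31.8, 26.9 and 43.0. HC 6 and STD 3 again met, at the same rounded signal, and all other HC libraries were below all STD libraries. The log2 difference was -1.53 (SE 0.29, 95% interval -2.15 to -0.91, 0.347-fold, limma adjusted p = 0.514). Over the 10 libraries the 2 genes had a Pearson r of 0.966 and a Spearman rho of 0.964, with the shared sequence described above.

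No gene in liver passed an adjusted p of 0.05 in limma (0% of 11497 called), and 488 had an unadjusted p under 0.05. Among the 9 members 0 were called and 4 had an unadjusted p under 0.05: Gstp1, Gstp2, Gstm5 and Gstm7. In 0.618% of genes the HC and STD libraries did not overlap, and in 0 of the 9 members. Without STD 3 the adjusted p was 0.0962 for Gstp1 and 0.100 for Gstp2 in limma, the lowest of all alternatives, and it was 0.999 for both without HC 9. The 2 genes kept their sign in all 17 alternatives, between -1.26 and -0.97 for Gstp1 and between -1.74 and -1.38 for Gstp2.

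All 7 mu genes had a higher mean under HC in the fit, and none passed the test (limma adjusted p = 0.995 for each). Gstm3, a mu gene of liver, had STD signals of 50.3, 37.5, 29.4, 49.9 and 43.9 and HC signals of 76.2, 115.3, 45.7, 206.7 and 28.5. HC 7 and HC 9 stood highest and HC 10 lowest of all 10, for a log2 difference of 0.85 (SE 0.42) that became 0.48 without HC 9. Gstm1 had its highest signals in the same HC 7 and HC 9 libraries (11999 and 11796), while the other 3 HC libraries (5033 to 7779) lay largely within the STD range (5296 to 8610), and its log2 difference was 0.21 (SE 0.23), or 0.07 without HC 7. Gstm5 was also highest in HC 7 and HC 9 (79.2 and 76.3, other libraries 30.4 to 50.6). The remaining log2 differences were 0.47 for Gstm2, 0.31 for Gstm7, 0.25 for Gstm6 and 0.08 for Gstm4. The median of the 9 members was 0.25 and that of all genes tested was -0.01.

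Marker sums overlapped between the liver groups. The 6 hepatocyte markers summed to 637156 to 839079 in STD and to 780650 to 1071255 in HC libraries, and the 5 fibroblast markers to 1214 to 1632 and 1286 to 3101. Their part in the GST values was not tested. In tissue RNA, fewer cells of a type and less RNA per cell cannot be told apart.

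**Figure D2:**
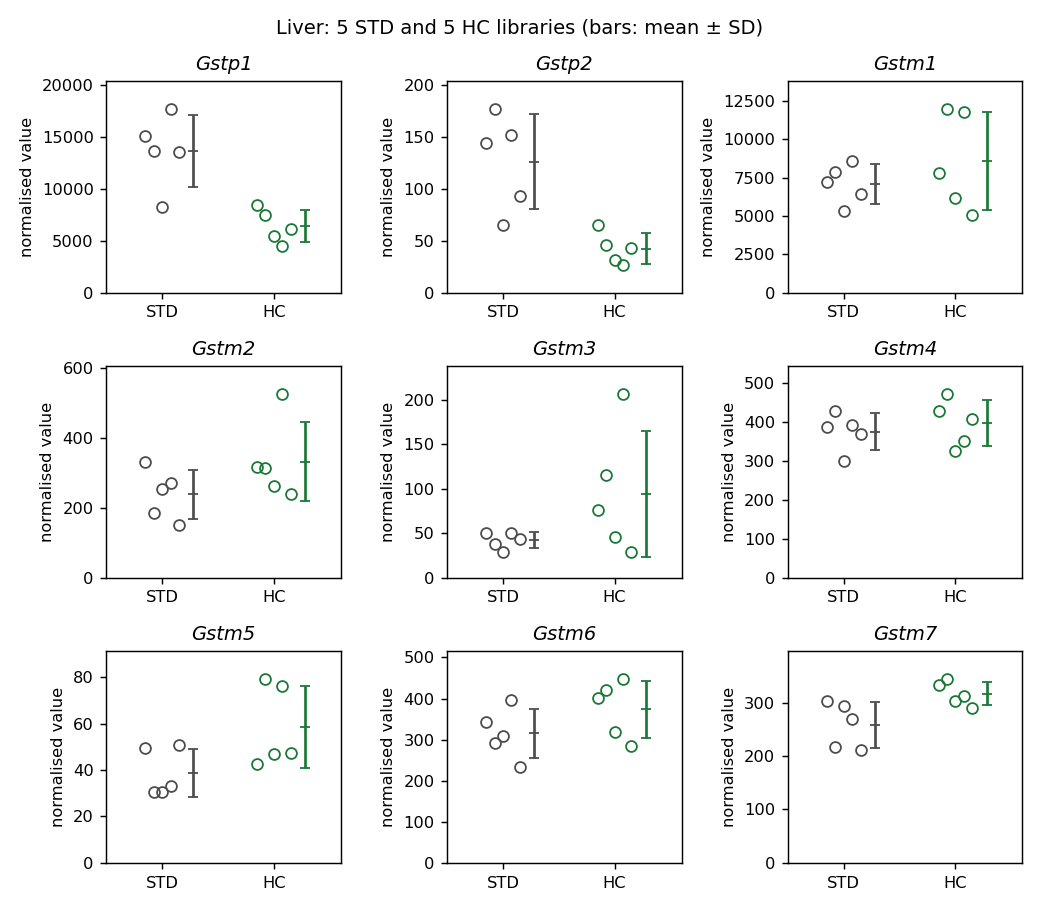
Normalised signal of the 9 genes in each liver library of STD (1 to 5) and HC (6 to 10) mice, with bars for the mean ± SD. Gstp1 and Gstp2 are lower in HC but for HC 6 against STD 3, and HC 7 and HC 9 carry the highest Gstm1, Gstm3 and Gstm5.

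The related glutathione genes gave no call in liver. Of the other cytosolic and mitochondrial transferases 10 of 14 were tested, with 8 higher and 2 lower means. The lists of microsomal transferases (2 of 3 tested), glutathione synthesis and recycling (8 of 10), glutathione peroxidases (3 of 6) and export of conjugates (5 of 5) also held 0 called genes. Gstp3, another pi gene, outside the 9, had a mean signal of 55.5 ± 9.02 in STD and 77.4 ± 11.8 in HC livers (SD, n = 5 each), a log2 difference of 0.47 (SE 0.16) of opposite sign to Gstp1 and Gstp2.

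In soleus, a slow postural muscle, the pi means were also lower under HC, by less, and 1 HC library stood against this. Gstp1 signals were 1463, 1228, 1194, 1114 and 1109 in STD 70 to 74 and 1513, 975.2, 1063, 832.6 and 978.3 in HC 75 to 79. HC 75 was the highest of all 10, and the other 4 HC libraries were below all STD libraries. The log2 difference was -0.21 (SE 0.14, limma adjusted p = 0.994), and -0.34 without HC 75 (limma adjusted p = 0.217). Over all alternatives it lay between -0.34 and -0.13.

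Gstp2 signals in soleus were 848.6, 755.2, 707.5, 632.9 and 623.0 in STD and 864.1, 499.0, 542.3, 485.4 and 557.6 in HC libraries. HC 75 was again the highest, and the log2 difference was -0.30 (SE 0.15, limma adjusted p = 0.986), or -0.45 without it (limma adjusted p = 0.127). HC 75 also had the lowest summed signal of 6 macrophage markers, 195, where the other HC libraries had 573 to 978 and STD libraries 298 to 486. Between the groups, the sums of 4 Schwann cell markers were 747 to 1260 in STD and 1235 to 5263 in HC libraries, those of 6 hepatocyte markers 251 to 1536 and 22.5 to 836, and those of 4 erythroid markers 774 to 3080 and 214 to 2525. The part of these markers in the pi signals was not tested.

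The mu genes of soleus differed little, with log2 differences from -0.13 (Gstm1) to 0.04 (Gstm2). Of the 7 members tested 0 were called in limma and 0 had an unadjusted p under 0.05, against 0% of 12067 genes called and 609 with an unadjusted p under 0.05. In 1.1% of genes the groups did not overlap, and in 0 of the 7 members. The 5 other lists held 0 called genes. The median over the 7 members was -0.08 and over all genes -0.01.

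**Figure D3:**
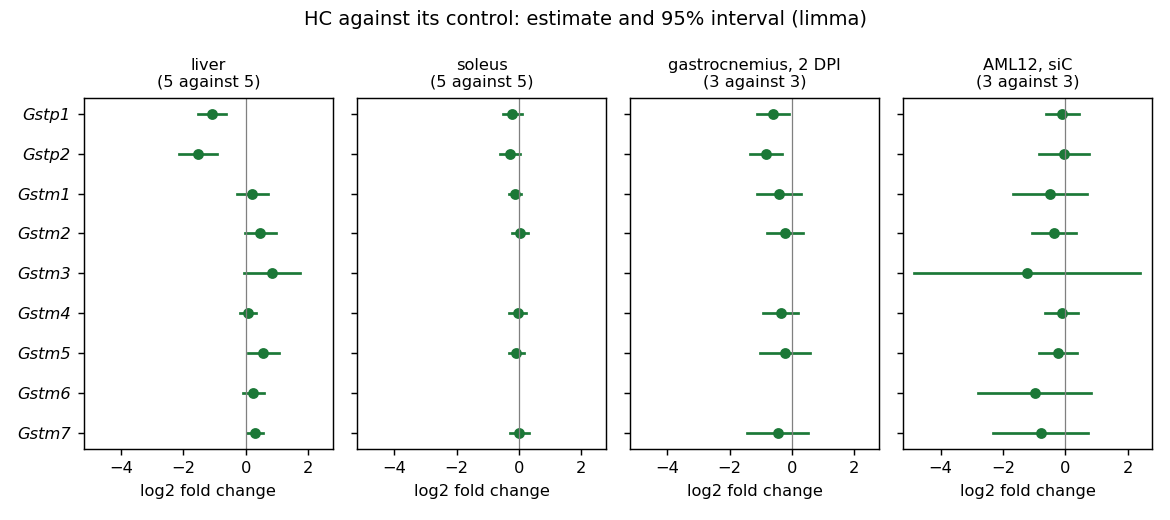
Log2 difference (HC minus control, 95% interval, log2 of signal plus 1) of each tested gene in liver, soleus, gastrocnemius at 2 DPI and siC AML12 cells. Gstp1 and Gstp2 lie below 0 in liver (-1.09 and -1.53), soleus (-0.21 and -0.30) and gastrocnemius at 2 DPI (-0.61 and -0.83), and their intervals include 0 in soleus and AML12.

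In injured gastrocnemius the deposited signals of the pi genes did not overlap between CTX 2 DPI and CTX-HC 2 DPI. Gstp1 was at 4228, 3565 and 5115 in CTX libraries 55 to 57 and at 2607, 2726 and 3031 in CTX-HC libraries 58 to 60. The log2 difference was -0.61 (SE 0.24, 95% interval -1.13 to -0.09) with a limma adjusted p = 0.662. Gstp2 was at 1418, 2094 and 2609 in CTX and at 1024, 1016 and 1314 in CTX-HC libraries, a log2 difference of -0.83 (SE 0.24, 95% interval -1.35 to -0.31, limma adjusted p = 0.662). Scaled to a library sum of 1000000, Gstp1 still did not overlap. Gstp2 did on that scale, with 60.3 in CTX 55 and 61.9 in CTX-HC 58. Both relative differences were smaller on that scale. The means of Gstp1 were 4302 in CTX and 2788 in CTX-HC as deposited, and 175 and 146 when scaled. Those of Gstp2 were 2040 and 1118 as deposited, and 83.2 and 58.4 when scaled.

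On the deposited scale all 7 tested members had lower means in CTX-HC than in CTX muscle at 2 DPI. The median log2 difference was -0.42, against 0.02 over all genes. Scaled to a library sum of 1000000, Gstm2 (16.7 in CTX, 18.7 in CTX-HC) and Gstm5 (21.6 and 23.4) had higher means in CTX-HC. Gstp1, Gstp2, Gstm1, Gstm4 and Gstm7 kept lower means on that scale. In limma 0 of 7 members were called (2 at an unadjusted p under 0.05, both pi genes), beside 0% of 14033 genes called and 1005 at an unadjusted p under 0.05. The share of all genes whose groups did not overlap was 13.5%, against 2 of the 7. Markers moved between the same groups. The 8 muscle fibre markers summed to 1632839 to 2466932 in CTX and 912120 to 1419098 in CTX-HC libraries, without overlap, and 6 macrophage markers to 1932 to 9616 and 5008 to 22876. Their part in the pi signals was not tested.

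At 30 DPI the HC groups overlapped for every member. Gstp1 was at 3039, 2339 and 4970 in CTX and at 4171, 3152 and 2925 in CTX-HC muscle, a log2 difference of 0.04 (SE 0.24), and that of Gstp2 was -0.06 (SE 0.24). None of the 7 was called (0 at an unadjusted p under 0.05), beside 0% of all genes called and 106 at an unadjusted p under 0.05, and 2.19% of genes had groups that did not overlap. The difference between 30 and 2 DPI in the effect of HC was 0.65 (SE 0.34) for Gstp1 and 0.77 (SE 0.34) for Gstp2 on the log2 scale (limma adjusted p = 0.999 for both). HC feeding began at injury, so its length and the stage after injury cannot be told apart in this contrast. In that test 0 of 7 members were called and 1, Gstp2, had an unadjusted p under 0.05, as did 355 of all genes, of which 0% were called.

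After injury no member was called, and 3 mu genes did not overlap the uninjured muscle at 2 DPI, beside 29.1% of all genes. Gstm2, a mu gene of muscle as well as liver, was at 721.8, 624.4 and 925.2 in the 3 uninjured libraries. It was at 372.6, 342.7 and 525.7 at 2 DPI and at 572.2, 330.0 and 476.7 at 30 DPI. Both injured groups lay wholly below the uninjured one. The log2 difference was -0.88 at 2 DPI (SE 0.27, limma adjusted p = 0.257) and -0.74 at 30 DPI (SE 0.27, limma adjusted p = 1.00).

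Gstm5 signals were 751.8, 793.7 and 1125 in uninjured and 585.3, 413.5 and 588.5 in CTX 2 DPI muscle, again without overlap, and at 30 DPI they were 973.3, 670.3 and 792.4. Gstm7 went from 35.2, 23.6 and 26.9 to 14.3, 13.3 and 20.4 at 2 DPI, with 29.8, 38.5 and 20.9 at 30 DPI. The log2 differences from uninjured muscle at 2 DPI were -0.74 for Gstm5 and -0.80 for Gstm7. On the deposited scale Gstp1 and Gstp2 showed means above the uninjured ones at 2 DPI, with log2 differences of 0.29 and 0.30, and overlapping libraries. Scaled to a library sum of 1000000, Gstp1 did not overlap, at 122 to 136 in uninjured and 167 to 180 in CTX 2 DPI muscle. Gstp2 still overlapped on that scale. The share of all genes without overlap was not computed on that scale.

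The counts for injury stand beside a large background. On the deposited scale 3 of the 7 members (Gstm2, Gstm5 and Gstm7, all lower) did not overlap at 2 DPI against uninjured, as did 29.1% of all genes. At 30 DPI 2 of 7 did not overlap (Gstm2 and Gstm4, lower), beside 10.9%, and at 30 against 2 DPI 2 of 7 (Gstm5 and Gstm7, higher), beside 26.7%. In limma 0 members were called in these 3 comparisons, with 1, 1 and 0 at an unadjusted p under 0.05, Gstm2 in the first and the second. Over all genes 0%, 0% and 0.257% were called, and 2095, 437 and 2957 had an unadjusted p under 0.05. The 3 comparisons share groups, so their values are not independent. The 5 other lists held 0 called genes in all 6 gastrocnemius comparisons. The muscle fibre markers summed to 2367146 to 3156534 in uninjured and 1632839 to 2466932 in CTX 2 DPI muscle. Without overlap were the sums of 5 fibroblast markers at 2 DPI (9215 to 12655 in uninjured, 21500 to 47538 in CTX) and of 5 adipocyte markers at 30 DPI (26.2 to 67.2 in uninjured, 102 to 185 in CTX). The part of these markers in the mu values was not tested.

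**Figure D4:**
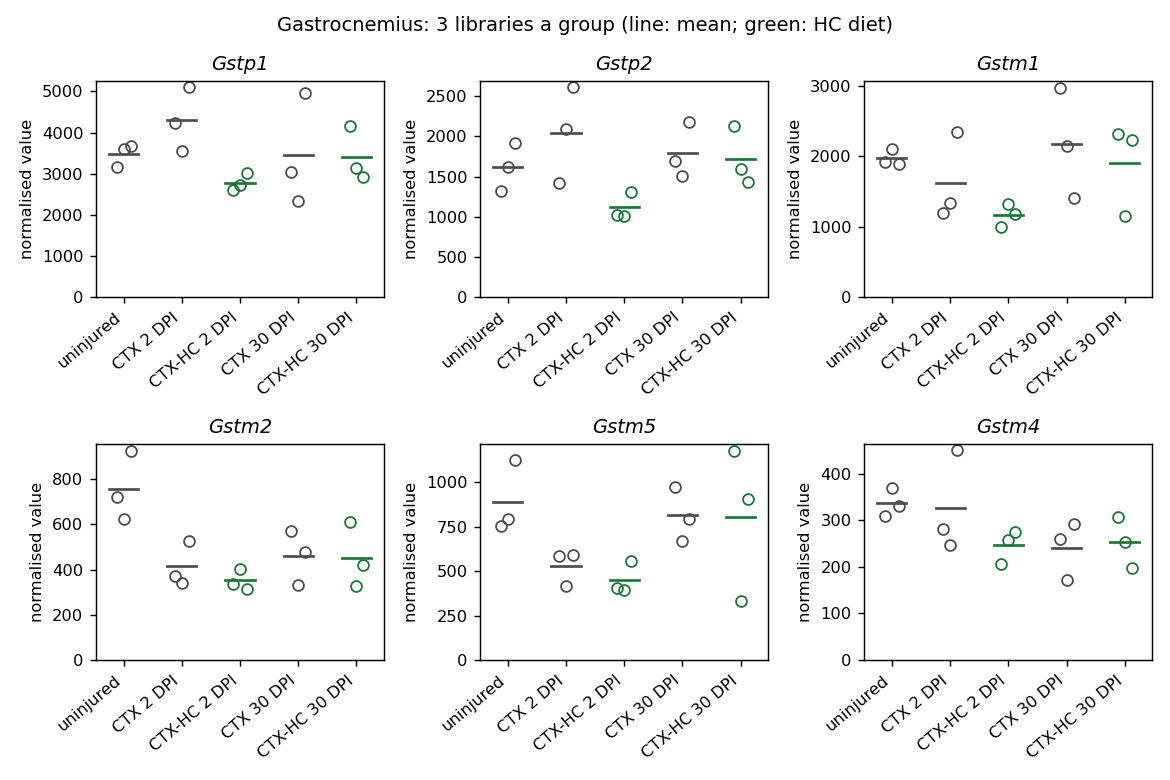
Normalised signal of 6 of the genes in each gastrocnemius library by group, with lines for group means and HC diet in green. CTX-HC 2 DPI lies below CTX 2 DPI for Gstp1 and Gstp2, and both CTX groups lie below uninjured muscle for Gstm2.

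In AML12 cells the pi means were higher with siAcly. Gstp1 was at 12611, 11463 and 14385 in siC Ut and at 13274, 23976 and 15773 in siAcly Ut libraries. In the HC groups it was at 11296, 12002 and 12447 with siC and at 20034, 13206 and 13717 with siAcly, without overlap. In the SB groups the values were 13895, 11023 and 12241 against 14732, 11073 and 13256, and in the Bemp groups 17549, 13856 and 13991 against 32447, 14859 and 14806. The groups overlapped in Ut, SB and Bemp. Of the 9 members, 1 in HC (Gstp1, higher) and 1 in Ut (Gstm1, lower) did not overlap between siC and siAcly, and 0 in SB and Bemp, beside 8.11%, 23.9%, 7.74% and 7.18% of all genes in that order. The siAcly mean was the higher one in all 4 treatments, and siAcly Bemp 22 gave the highest value of the 24.

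Averaged over the 4 treatments, the log2 difference between siAcly and siC was 0.30 for Gstp1 (SE 0.13, 95% interval 0.04 to 0.57, limma adjusted p = 0.161) and 0.38 for Gstp2 (SE 0.19, limma adjusted p = 0.253). In limma 0 of the 9 members were called (1, Gstp1, at an unadjusted p under 0.05) where 4.77% of 12296 genes were, with 2754 at an unadjusted p under 0.05. The call depended on how the libraries were adjusted. With the position of the library number as a covariate, a term added after seeing the data, 2 members were called: Gstp1 at 0.30 (SE 0.09, limma adjusted p = 0.0276) and Gstp2 at 0.41 (SE 0.13, limma adjusted p = 0.0415). With this covariate 15.6% of all genes were called, so 2 of 9 members lay near the background. With the series of numbers alone (1 to 23 or 81 to 87) the limma adjusted p was 0.0994 and 0.151, and without siC Bemp 11 and siC Ut 13 it was 0.249 and 0.367. Without siAcly Bemp 22 the difference was 0.21 for Gstp1 and 0.25 for Gstp2.

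Within each series the direction was the same. Among libraries 1 to 23 Gstp1 was higher in siAcly by 0.38 on the log2 scale (4 of 4 treatments), and among libraries 81 to 87 by 0.11 (3 of 3). For Gstp2 these values were 0.34 and 0.50, again in 4 of 4 and 3 of 3 treatments. Each treatment among libraries 81 to 87 set 1 library against 1. Libraries 1 to 23 include siC Bemp 11, siC Ut 13 and siAcly Bemp 22. In untreated cells alone the log2 difference was 0.42 for Gstp1 (SE 0.25, limma adjusted p = 0.368), or 0.18 without siAcly Ut 15, and 0 of 9 members were called in limma, with 0 at an unadjusted p under 0.05, beside 0.187% of all genes called and 2332 at an unadjusted p under 0.05.

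One gene of the related lists passed the test between siAcly and siC over the 4 treatments. Gsta2, an alpha class transferase, rose by a log2 difference of 1.20 (SE 0.32, limma adjusted p = 0.0351). It was the 1 called of 12 tested in its list, beside 4.77% of all genes called. The lists of microsomal transferases (3 tested), synthesis and recycling (9), peroxidases (4) and export (5) held 0 called genes there.

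The inhibitors gave no call among the members. In siC cells the 9 log2 differences from Ut ranged from -1.23 to -0.05 with HC, from -1.07 to -0.05 with SB and from -1.16 to 0.24 with Bemp. In siAcly cells they ranged from -0.42 to 0.65, from -0.61 to 0.04 and from -0.29 to 1.35. In each of these 6 comparisons limma called 0 members (0 at an unadjusted p under 0.05) and 0% of all genes. At an unadjusted p under 0.05 there were 42, 70 and 240 genes in siC and 271, 1648 and 314 in siAcly cells with HC, SB and Bemp. The tests of whether siAcly altered these effects also called 0 members and 0% of genes, with 0 members and 63, 1038 and 166 genes at an unadjusted p under 0.05. For HC in siC cells the log2 difference of Gstp1 was -0.10 (SE 0.25). The siC Ut reference holds siC Ut 13, and the siC Bemp group holds siC Bemp 11, both with Acly or Cyp1a1 signals unlike their groups. Unlike the other siC groups, siC Ut also holds no library numbered 81 to 87, where most mu genes were lowest. Over all alternatives the HC difference in siC cells lay between -0.74 and 0.02 for Gstm1 and between -2.31 and 0.45 for Gstm3.

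Most mu genes varied with the library number. Gstm1 was at 2874 to 4390 in the 7 libraries numbered 81 to 87 and at 5488 to 17709 in the other 17, with no overlap. Gstm3 was at 0 to 5.74 in the former and 12.1 to 230.0 in the latter. In all 7 groups that held 1 of these libraries it was the lowest of its group for Gstm1, Gstm2, Gstm3, Gstm6 and Gstm7, in 6 for Gstm5 and in 5 for Gstm4, but in 3 for Gstp2 and 1 for Gstp1. Over all genes tested, 7.46% were lowest in these libraries in all 7 groups, beside 5 of the 9 members.

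The 6 hepatocyte markers followed the same libraries. They summed to 6321 to 9434 in libraries 81 to 87 and to 11904 to 46321 in the others, and were lowest in 7 of 7 groups there. What sets these libraries apart is not stated in the labels, and its part in the mu values was not tested. Within libraries 81 to 87 the log2 difference of Gstm1 between siAcly and siC was -0.39 (higher in siAcly in 0 of 3 treatments). Within 1 to 23 it was -0.08, with siAcly higher in 2 of 4 treatments. The siC Ut group holds no library of 81 to 87, so comparisons of the mu genes with siC Ut carry this series difference.

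**Figure D5:**
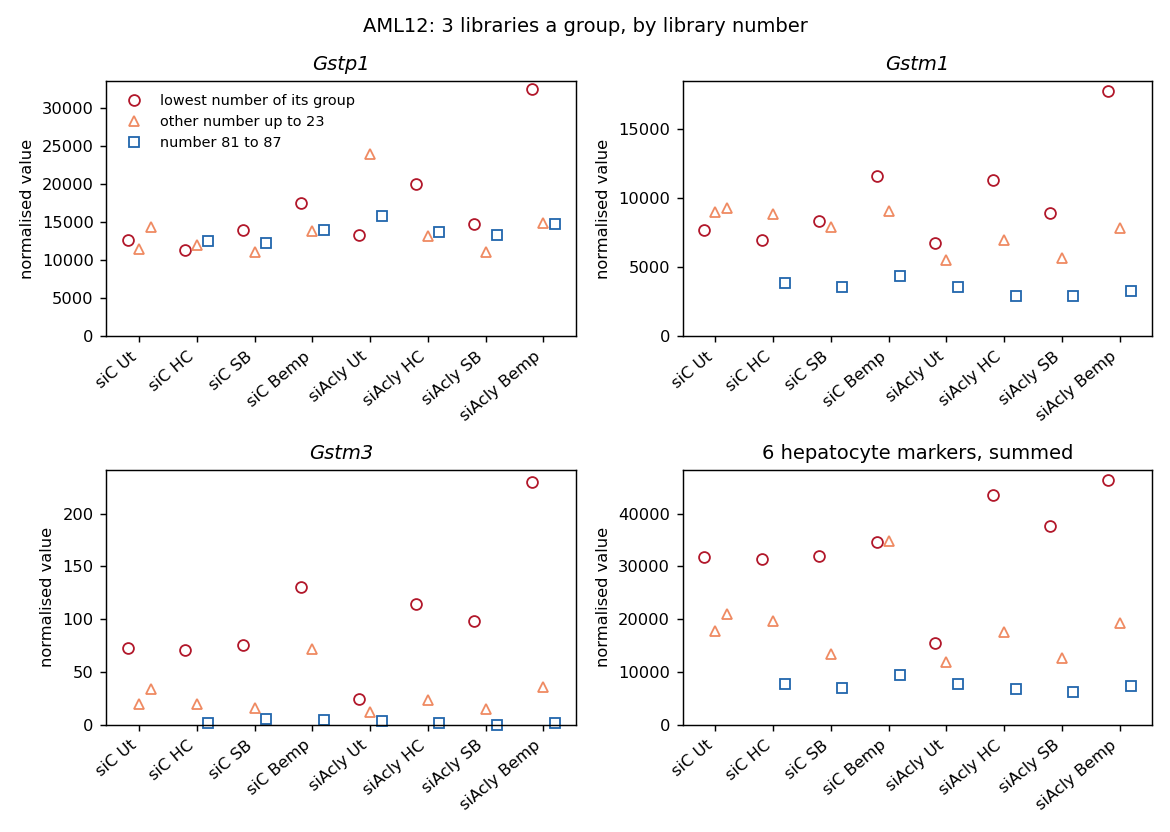
Normalised signal of Gstp1, Gstm1 and Gstm3 and the summed signal of 6 hepatocyte markers in each AML12 library by group, with symbols for the lowest number of a group, other numbers up to 23 and numbers 81 to 87. Libraries 81 to 87 are lowest in their group for Gstm1, Gstm3 and the markers in 7 of 7 groups, and for Gstp1 in 1.

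The members did not vary as 1 block. Over the 24 AML12 libraries, which share their series of numbers, Gstm1 had a Pearson r of 0.947 with Gstm7 and 0.929 with Gstm3 but 0.373 with Gstp1, and Gstp1 had 0.89 with Gstp2. Gstp1 and Gstm1 had an r of -0.074 over 10 liver, 0.824 over 10 soleus and 0.119 over 15 gastrocnemius libraries. Outside the 2 classes, the genes most like Gstp1 were Podxl, Zrsr1 and Mup20 in liver (r = 0.929, 0.927 and 0.9), Gapdh, Anapc13 and Art5 in soleus (0.978, 0.974 and 0.973), Rbp4, Lamp1 and Fam50a in AML12 (0.901, 0.871 and 0.857) and Hdgf, Vps52 and Ube2m in gastrocnemius (0.952, 0.931 and 0.928). For Gstm1 they were Acnat2, Ncapd2 and Tmem141 in liver (0.948, 0.942 and 0.942), Ubl7, Ypel3 and Mxi1 in soleus (0.92, 0.919 and 0.914), Sephs2, Ttr and Reep6 in AML12 (0.962, 0.959 and 0.957) and Foxj2, Higd2a and Nfia in gastrocnemius (0.938, 0.938 and 0.934). These genes were picked as the highest of all genes tested, with all groups of a table pooled, so high r values follow in part from the selection. Spearman's rho ranged from 0.597 (Fam50a in AML12) to 0.964 (Anapc13 and Art5 in soleus) for Gstp1. For Gstm1 it ranged from 0.855 to 0.952. Ttr is 1 of the 6 hepatocyte markers.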

How the data were processed

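Each of the 59 libraries is a bulk RNA-seq sample. The deposited values are a signal: gene counts that the authors aligned to mm10 with a STAR-based application and divided by DESeq2 size factors within each of 4 tables. Whole reads could not be recovered from them, so no count test was run, and depth was estimated from the most frequent smallest value. Per the labels, liver and soleus libraries were ribosome-depleted with a directional kit, whereas the study's methods name a stranded mRNA kit. Read length and annotation are not given in the sources used here.

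Signals were transformed to log2(signal + 1). Genes at 10 or more in as many libraries as the smallest group were fitted with limma 3.58.1 (trend, empirical Bayes, R 4.3.3), all groups of a table together, and p-values were Benjamini-Hochberg adjusted over all genes tested with a limit of 0.05. Fold changes on this scale understate those of low genes. The fit was tested on simulated data. Other values were computed in Python 3.11.15. Positions come from the GRCm38 annotation, and promoter sequences from RefSeq GRCm38.p6. Levels by length used 1 transcript per gene.

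The named genes are the 9 members, the called genes of 5 related lists (at most the 2 with the largest change), and the 3 genes with the highest Pearson r to Gstp1 and to Gstm1 in each table. The members and lists were chosen with earlier results of these data known. Alternatives were other pseudocounts, no limit on low values, other scalings, no trend, only the groups compared, library series as a covariate, a replicate block for liver and soleus, and each library left out. Added after seeing the data were the position of the AML12 library number (its place in runs of 3, or 81 to 87) as a covariate, and AML12 without siC Bemp 11 and siC Ut 13.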

Additional observations from a re-analysis of the deposited data

Results flagged for a closer look

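In the liver and soleus groups of 5 libraries, the gap of the highest or lowest library to its nearest neighbour was divided by the range of the group and set against Dixon's critical value of 0.71. Of 32 groups examined 3 passed, where chance passes about 1 in 20. Gstm2 had a signal of 526.6 in HC 9, the highest of the HC livers (gap over range 0.729). HC 75 was the highest of the HC soleus libraries for Gstp2, at 864.1 (0.809), and for Gstm5, at 554.4 (0.806). Without HC 9 the log2 difference of Gstm2 between HC and STD liver was 0.29 in place of 0.47.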

How the results depend on the processing

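The 157 log2 differences of members over 19 comparisons were each recomputed under 14 to 34 alternatives. Of the 2810 differences so recomputed 2808 stayed on the same side of the limit, and 71 of the 157 kept their sign in every alternative. The count of called members changed in 1 comparison, siAcly against siC over the 4 AML12 treatments, from 0 to 2 (Gstp1 0.30 and Gstp2 0.41) with the position of the library number as a covariate, an alternative chosen after seeing the data under which 15.6% of all genes were called.

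With the replicate block, liver and soleus both kept 0 called members, and the block changed no other call. In liver the log2 difference of Gstp1 was -1.09 (limma adjusted p = 0.291) and that of Gstp2 -1.53 (limma adjusted p = 0.225). The labels give only shared numbers: libraries with the same number had correlated deviations of over 0.1 in 0 of 5 liver and 1 of 5 soleus pairs, and 2 of 10 libraries in each tissue were closest to their own number.

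The design limits what can be seen. The deposited signals carry no counts, so the depth behind a single value is an estimate. In AML12 and gastrocnemius each group holds 3 libraries. Gstp1 and Gstp2, and Gstm1 and Gstm3, share sequence, so their split rests on the authors' counting. Leaving out 1 library moved the liver difference of Gstp1 between -1.26 and -0.97 and of Gstp2 between -1.74 and -1.38.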
